A study of Mus musculus with 6 samples.

Results

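In each of 4 gene pairs that share exon on opposite strands, nearly all counts of the mouse cerebellar libraries fell on the partner of the Purkinje cell gene. The pairs are Pcp2 with Pet100, Homer3 with Ddx49, Gng13 with Chtf18 and Inpp5a with Nkx6-2, which makes 8 genes of the 24421 in the count tables. They were chosen by their position and by their counts in these libraries, so the split of counts within a pair is given as a description with no test. All 8 passed the filter on low counts and were among the 5320 genes tested between genotypes; the choice set no threshold on that difference.

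Libraries came from the Purkinje neuron layer plus molecular layer, microdissected from the cerebellum of mice aged 1 year. There were 3 wild type (WT) libraries and 3 libraries labelled STIM1 knockout (KO). The sources used here do not give strain, sex, the deleted allele, the promoter or cell type that drives the deletion, batch or any pooling of mice. STIM1 is the calcium sensor of the endoplasmic reticulum that gates store-operated calcium entry, and the genotypes were compared to see what its loss changes in this tissue.

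Purkinje cells are the output neurons of the cerebellar cortex. Parallel fibres excite them in part through the receptor mGluR1, which acts through Gq and phospholipase C to form IP3, and IP3 opens the release channel Itpr1 on the calcium store. Homer3 is the postsynaptic scaffold that ties mGluR1 to the IP3 receptor, and Inpp5a is the phosphatase that inactivates IP3. Gng13 is a G protein gamma subunit, and Pcp2 (also called L7), a modulator of Gi and Go proteins, is a classical marker of Purkinje cells. The neighbours have other roles: Pet100 helps assemble cytochrome c oxidase, Ddx49 is a DEAD-box helicase of ribosome assembly, Chtf18 is part of a clamp loader used in DNA replication and sister chromatid cohesion, and Nkx6-2 is a homeodomain transcription factor of oligodendrocytes and neural progenitors.

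The libraries held 645994 to 764839 counts in genes. That was 1.16% to 1.23% of the uniquely aligned reads. Stim1, the targeted gene, was counted 7, 21 and 3 times in WT replicates 1 to 3, and the KO libraries held 4, 3 and 2 counts, which is few for checking the labels (exact two-sided permutation test of CPM, p = 0.3). Y-linked genes summed to 28 counts for WT replicate 3 and 14 for KO replicate 3, with 0 for the rest. Values without these 2 libraries are given with the other processing alternatives. Of 36 Purkinje cell markers, all had counts and 33 were tested. The sources used here do not say which strand was counted or whether the library kit keeps strand. The counts of a gene and of its opposite-strand neighbour can therefore not be assigned to one RNA or the other with certainty, and each gene name below stands for the counts listed under it. In HTSeq, a read that falls in exons of both genes is set aside as ambiguous when strand is ignored. The ambiguous reads numbered 2373 to 2831 per library, and which setting was used was not tested.

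The gene models show how the pairs lie (GENCODE M21 on GRCm38, which may differ from the annotation counted). Pcp2 (chromosome 8, 3623371 to 3625545, minus strand) lies wholly within the span of Pet100 (chromosome 8, 3621548 to 3625848, plus strand). They share 941 exon bases, 51.5% of the merged exon of Pcp2 and 52.6% of that of Pet100. In the other 3 pairs the ends of the genes meet tail to tail. Homer3 (chromosome 8, 70282827 to 70294361, plus strand) and Ddx49 (chromosome 8, 70292866 to 70302489, minus strand) share 874 exon bases. Gng13 (chromosome 17, 25717171 to 25719406, plus strand) shares 399 bases with Chtf18 (chromosome 17, 25718926 to 25727419, minus strand), which is 51.6% of the exon of Gng13 and 7.53% of that of Chtf18. The shortest overlap was that of Inpp5a (chromosome 7, 139389109 to 139579652, plus strand) and Nkx6-2 (chromosome 7, 139579376 to 139582797, minus strand), with 246 bases, 4.35% and 12.9% of their exons.

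No shared base is coding in both genes of a pair. Of the 941 bases shared by Pcp2 and Pet100, 189 are coding in Pcp2 and 0 in Pet100. Ddx49 has 338 coding bases in its overlap and Homer3 189, and Chtf18 has 211 and Gng13 103. The overlap of Inpp5a and Nkx6-2 is untranslated in both, and it exists for 1 of the 2 Nkx6-2 transcripts in the annotation, Nkx6-2-201, while Nkx6-2-202 shares 0 bases.

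**Figure D1:**
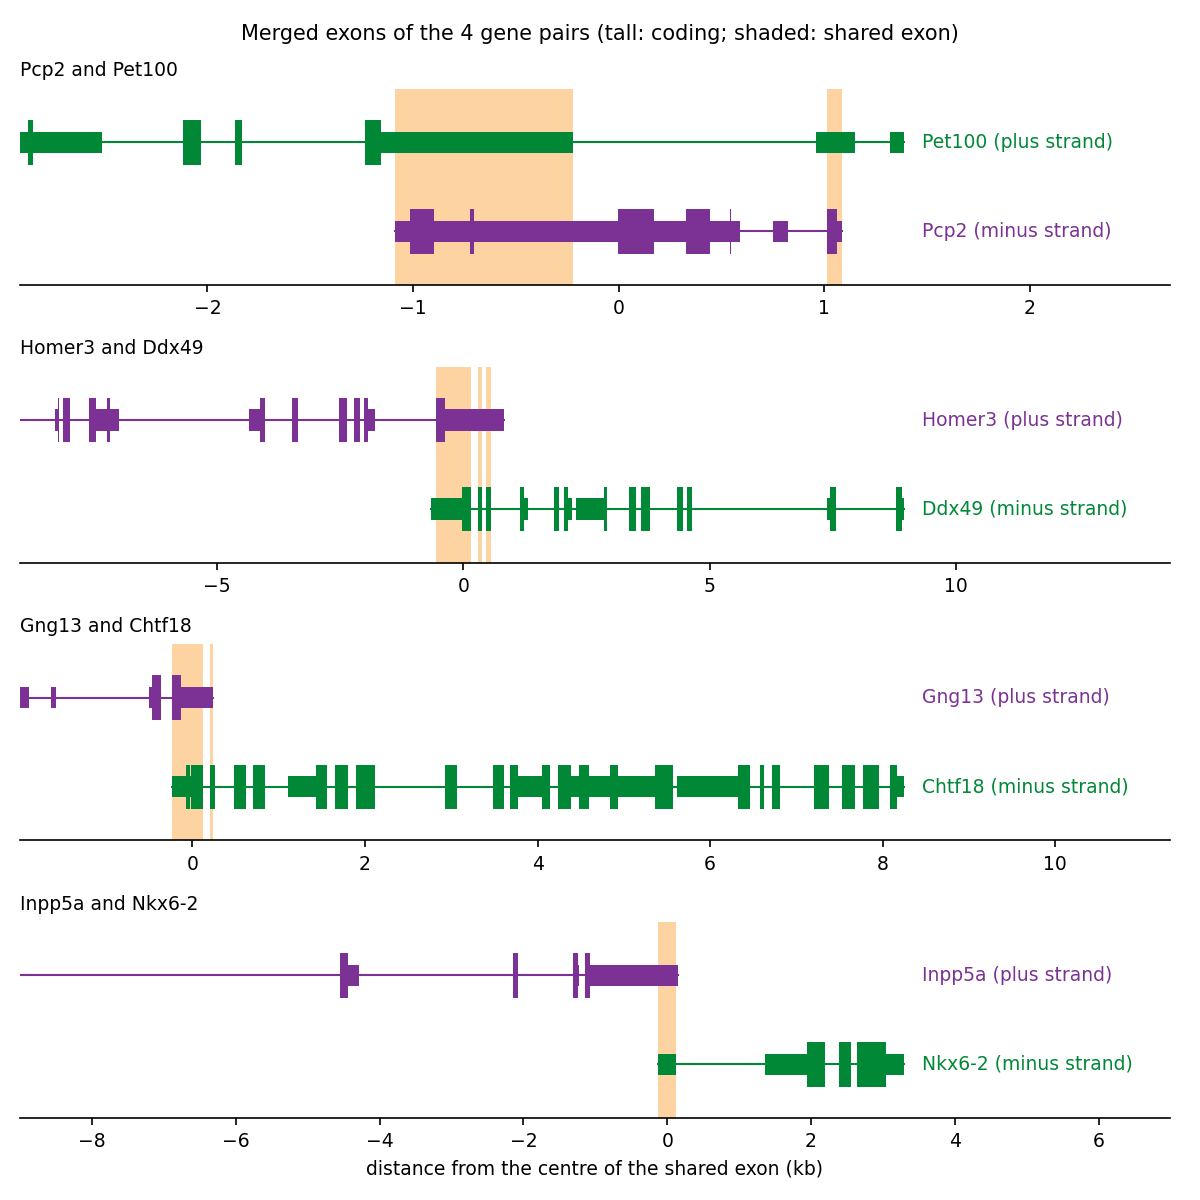
Merged exons of each pair along the genome, as distance in kb from the centre of the shared exon; tall boxes are coding, low boxes are untranslated or non-coding exon, and shading marks the shared exon. Homer3 and Inpp5a run on past the left edge. Pcp2 lies inside Pet100, and the other pairs overlap at their 3′ ends.

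The coding sequences of Pcp2 and Gng13 show how far the overlap reaches into the protein-coding part. They are written 5′ to 3′ on the gene's own strand without the stop codon, from the GENCODE M21 transcripts, and capitals mark bases that also lie in exon of the opposite gene. In Pcp2-201 (exons within chr8:3623442-3624840, minus strand) these are 117 of 297 coding bases, the end of the protein. In Gng13-202 (within chr17:25718701-25719029, plus strand) they are 103 of 201.
Pcp2-201: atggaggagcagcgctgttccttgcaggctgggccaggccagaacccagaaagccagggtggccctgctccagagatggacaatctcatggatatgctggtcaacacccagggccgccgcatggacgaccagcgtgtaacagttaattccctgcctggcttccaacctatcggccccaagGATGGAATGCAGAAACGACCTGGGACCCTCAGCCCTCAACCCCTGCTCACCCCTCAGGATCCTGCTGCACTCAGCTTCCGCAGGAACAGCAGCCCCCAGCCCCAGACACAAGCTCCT
Gng13-202: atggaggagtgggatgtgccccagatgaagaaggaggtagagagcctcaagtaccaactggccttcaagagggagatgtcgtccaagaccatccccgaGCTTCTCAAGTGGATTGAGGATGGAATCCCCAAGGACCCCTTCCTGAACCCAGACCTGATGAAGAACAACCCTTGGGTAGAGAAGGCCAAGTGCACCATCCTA

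A stretch of 30 shared bases (chr8:3623529-3623558) reads differently in the RNA of either gene, since one is the reverse complement of the other, and a read that keeps its strand can be told apart. Capitals here mark that every base is shared.
Pcp2-201: GATGGAATGCAGAAACGACCTGGGACCCTC
Pet100-201: GAGGGTCCCAGGTCGTTTCTGCATTCCATC

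The neighbours were among the most counted genes of the whole table, and the Purkinje genes were not. Pet100 ranked 1 of 24421 genes by summed count, Ddx49 ranked 3, Chtf18 ranked 9 and Nkx6-2 ranked 22. Homer3 ranked 354, Pcp2 1457, Gng13 1666 and Inpp5a 2003. The 4 neighbours together took 4.13% to 6.84% of all gene counts per library, and the 4 Purkinje genes 0.0698% to 0.0775%. Leaving out the 4 neighbours, which were chosen for their position and counts, 19 of the other 21 genes among the 25 most counted share at least 50 exon bases with a gene on the other strand. Of the tested genes with a gene model, 32.8% do.

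Pcp2 was counted 60, 59 and 47 times in WT replicates 1 to 3, and 71, 60 and 70 times in KO replicates 1 to 3. For Pet100 the WT libraries held 17706, 22570 and 22224 counts, and the KO libraries 16179, 24449 and 19144. For each count of Pcp2 there were between 228 (KO replicate 1) and 473 (WT replicate 3) counts of Pet100. Pcp2 made up 0.211% of the pair in WT replicate 3 (Wilson 95% interval 0.159% to 0.28%) and 0.437% in KO replicate 1 (0.347% to 0.551%). Intervals treat every read as independent, which amplified reads are not, so they may be too narrow even for counting error. They also leave out the spread between libraries.

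Homer3 had more counts than the other Purkinje genes of the set, with 301, 354 and 359 for WT and 390, 344 and 315 for KO. The WT libraries held 8579, 11461 and 11668 counts of Ddx49, and the KO libraries 8510, 13636 and 9768. The ratio of Ddx49 to Homer3 by counts was 21.8 (KO replicate 1) to 39.6 (KO replicate 2), so both ends of the range were KO libraries, and per kb of exon it was 25.6 to 46.6. The share of Homer3 was 4.38% (3.98% to 4.83%) in the first and 2.46% (2.22% to 2.73%) in the second. Homer3 itself varied least of the 8 genes, with a coefficient of variation of 5.55% over the 6 libraries, while Ddx49 varied by 21.6%.

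Gng13 was counted 54, 63 and 58 times in the WT libraries and 48, 46 and 38 times in the KO libraries, so every KO count lay below every WT count. The WT libraries held 2837, 4560 and 5337 counts of Chtf18 and the KO libraries 4007, 4730 and 5301, which overlap. The ratio of Chtf18 to Gng13 ran from 52.5 in WT replicate 1 to 139.5 in KO replicate 3. Gng13 made up 1.87% of the pair in the former (1.43% to 2.43%) and 0.712% in the latter (0.519% to 0.975%). Since Chtf18 has 5299 exon bases and Gng13 773, the ratio per kb of exon was lower, 7.66 to 20.3. These lengths are merged over all annotated transcripts, and the coding transcripts Chtf18-201 and Gng13-202 have 3214 and 719 bases. The ratio per kb therefore depends on the length used.

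Inpp5a was the least counted of the 8 genes, with 37, 36 and 52 for WT and 36, 46 and 37 for KO. Nkx6-2 stood at 2760, 3768 and 3546 counts for WT and at 2876, 4334 and 3178 for KO, and the groups of both genes overlapped. Inpp5a made up 0.946% (0.684% to 1.31%, WT replicate 2) to 1.45% (1.10% to 1.89%, WT replicate 3) of the pair, and these intervals overlap. In this pair the longer gene was the one with fewer counts: Inpp5a has 5649 exon bases and Nkx6-2 1907, and the ratio per kb of exon was 202 to 310. Here too the lengths are merged over transcripts, and the coding transcript Inpp5a-201 has 2774 bases.

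**Figure D2:**
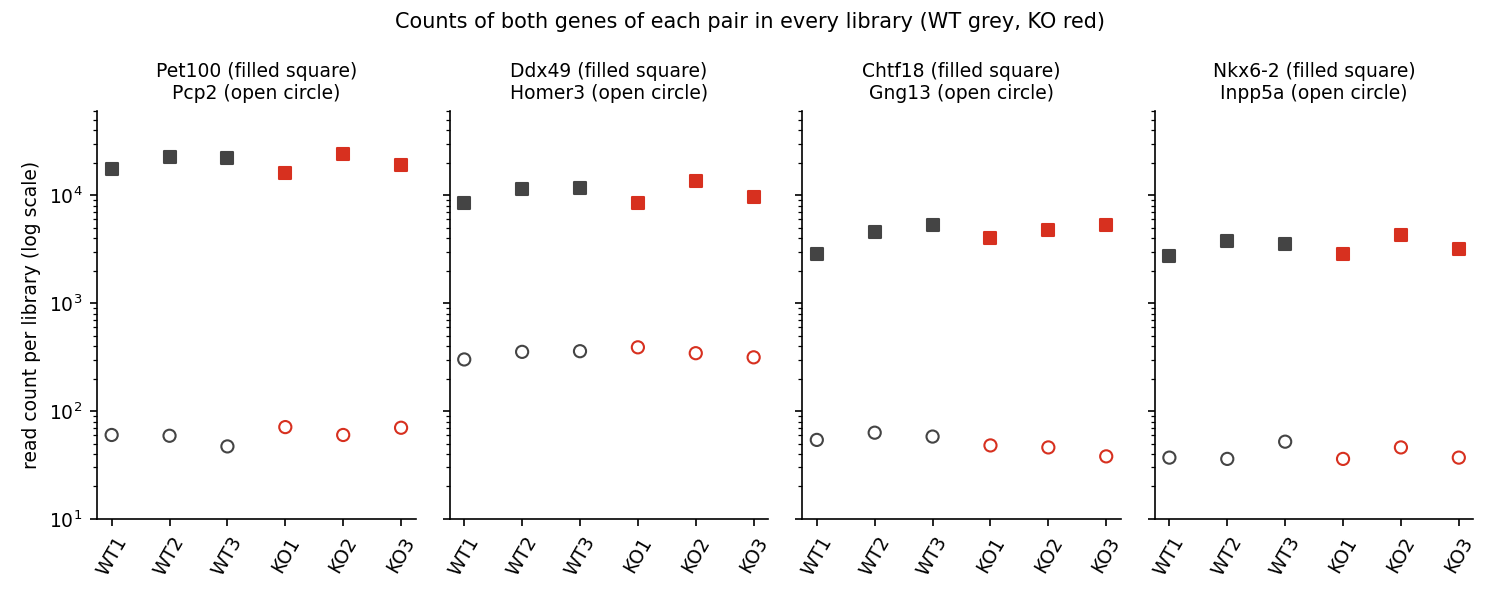
Read counts per library on a log scale, with the neighbour as filled squares and the Purkinje gene as open circles, WT in grey and KO in red. In every library the neighbour lies above the Purkinje gene, from 16179 to 24449 counts of Pet100 against 47 to 71 of Pcp2.

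A skewed split was common among opposite-strand pairs, so the skew alone does not set these 4 apart. Of 1655 pairs in the table that share at least 50 exon bases, 1269 had a summed count of at least 60, and in 607 of them (47.8%) 1 gene held at least 90% of the counts. The median pair had 89.1% on its higher gene. All 4 pairs described here were past 90%, with 99.7% for Pet100, 98.9% for Chtf18, 98.8% for Nkx6-2 and 96.9% for Ddx49, and they were chosen with that split in view. Among the 1269 pairs, 5.59% were at least as skewed as Pcp2 with Pet100 and 25.9% at least as skewed as Homer3 with Ddx49. By summed count, Pcp2 with Pet100 ranked 1, Homer3 with Ddx49 ranked 2, Gng13 with Chtf18 ranked 11 and Inpp5a with Nkx6-2 ranked 27.

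**Figure D3:**
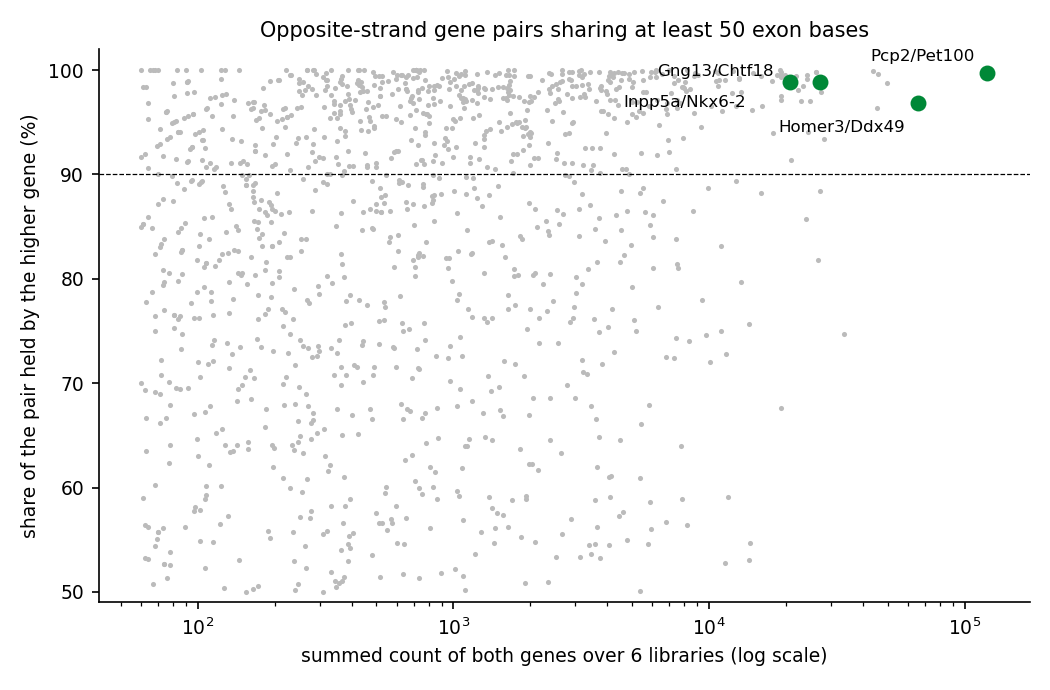
Each point is 1 of 1269 opposite-strand pairs, with the summed count over 6 libraries on a log axis and the share of the pair held by its higher gene; the dashed line is at 90%. The 4 named pairs (green) lie at the right end with shares of 96.9% to 99.7%, and 47.8% of all pairs lie on or above the line.

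Other Purkinje markers of the 36 also have an opposite-strand partner, and 2 of them are given here. Icmt, a methyltransferase of prenylated proteins, had 319 counts in all and its partner Rnf207 3182, or 90.9% of the pair. Dner, a Notch ligand of Purkinje cells, had 138 counts and its partner Mir5126 1572 (91.9%). Mir5126 is a microRNA gene, and whether its counts come from the mature microRNA was not tested. The 29 markers with no such partner had a median of 283 counts over the 6 libraries, from 8 to 6116 (Itpr1). Pcp2, Gng13 and Inpp5a, with 367, 307 and 244 counts, lay near that median, and Homer3 lay above it with 2063.

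The neighbours were set beside genes of like function, chosen after their values were seen, on a scale of CPM per kb of merged exon. CPM is the count scaled to a common total of tested genes, scaled with TMM factors. Pet100 averaged 17478 ± 3323 CPM per kb (SD, n = 6 libraries), and 14 other assembly factors of cytochrome c oxidase had a median of 1.51. The highest of them was Cox11 at 407, which also has an opposite-strand partner, Tom1l1. Sco2 (195), Cox15 (48.5), Surf1 (28.8) and Coa3 (1.69) have a partner as well. Ddx49 averaged 5550 ± 1200 (SD, n = 6), and 12 other DEAD-box helicases of ribosome assembly lay between 0.457 and 4.29. Chtf18 averaged 1289 ± 307 (SD, n = 6) and 7 subunits of replication clamp loaders at most 26.8 (Rfc5, opposite Wsb2). Rfc4 (3.80) and Rfc2 (0.62) also have a partner. Nkx6-2 averaged 2740 ± 558 (SD, n = 6) and 4 other NKX factors at most 25.9 (Nkx2-2, which has no such partner). No such gene reached its listed neighbour. On the same scale the Purkinje genes averaged 152 ± 8.43 for Homer3, 101 ± 18.6 for Gng13, 51.1 ± 8.09 for Pcp2 and 11.0 ± 1.86 for Inpp5a (SD, n = 6 each). In that order, Homer3 (137 to 163) lay above Gng13 (81.4 to 129), Gng13 above Pcp2 (37.9 to 63.4) and Pcp2 above Inpp5a (8.47 to 13.6) with no overlap of libraries. This order depends on the length used, since merged exon joins all annotated transcripts. Pcp2 has 1828 merged bases but 495 in Pcp2-201, and Gng13 has 773 but 719 in Gng13-202. Gng13 above Pcp2 is therefore not shown for single transcripts.

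**Figure D4:**
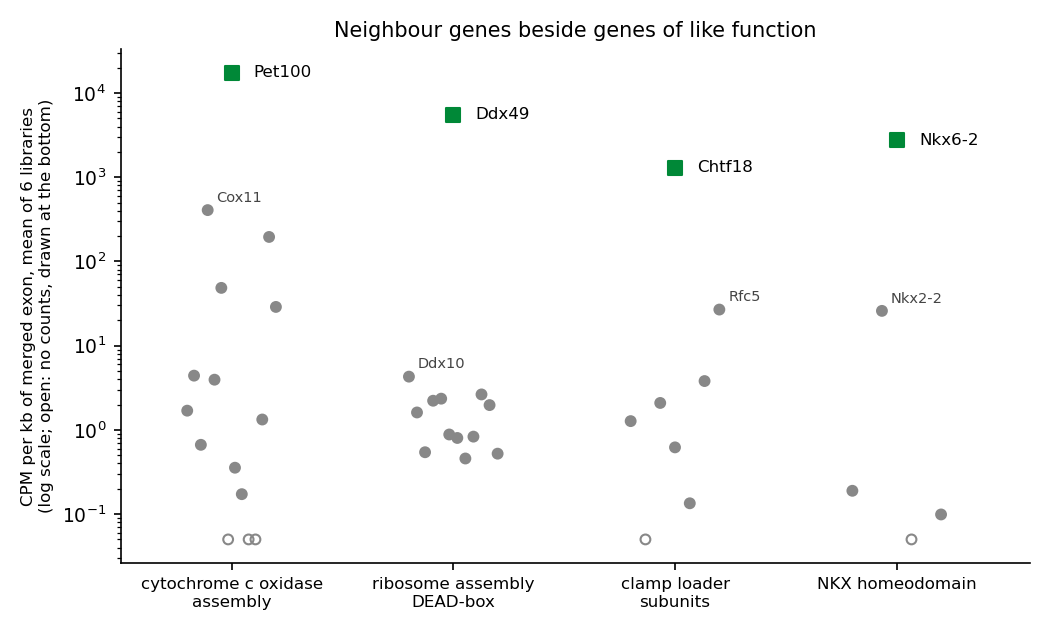
Mean level over 6 libraries in CPM per kb of merged exon, on a log axis, for each neighbour gene (green square) and for genes of like function (grey circles, open where no read was counted). Pet100 lies at 17478 and the next assembly factor, Cox11, at 407; the other neighbours also lie above every gene in their column.

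Nkx6-2 is known from oligodendrocytes, so the other markers of these cells were read beside it. Summed over 13 of them, the level was 158 to 196 CPM for WT libraries and 143 to 195 CPM for KO libraries, while Nkx6-2 alone had a mean CPM of 5170 ± 818 for WT against 5280 ± 1467 for KO (SD, n = 3 each). Mbp, myelin basic protein, was counted 15 to 30 times per library. Opalin had 0 counts in all libraries, and 4 of the 13 were tested. Their part in the Nkx6-2 count was not tested.

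Pet100, Ddx49 and Nkx6-2 varied together from library to library. Their log2 CPM correlated over the 6 libraries with Pearson's r of 0.98 (Pet100 and Ddx49), 0.966 (Pet100 and Nkx6-2) and 0.989 (Ddx49 and Nkx6-2), given as a description of libraries that share depth and composition. All 3 were highest in KO replicate 2 and lowest in KO replicate 1. Chtf18 was less like them, with r of 0.655 to 0.695, and was highest in KO replicate 3. Within the pairs r was -0.097 for Pcp2 and Pet100, 0.587 for Homer3 and Ddx49, -0.090 for Gng13 and Chtf18 and 0.673 for Inpp5a and Nkx6-2. Over all tested genes other than predicted ones (Gm, Rik or LOC symbols), the 2 most alike were Chn1os3 (0.991) and Whrn (0.987) for Pet100, and Slc9a3 (0.992) and Gucy1b3 (0.991) for Ddx49. For Chtf18 they were Zfpm2 (0.984) and Npc1 (0.978), and for Nkx6-2 they were Mesdc1 (0.991) and Ddx49 itself. Chn1os3 also lies opposite another gene, Chn1. Of the Purkinje genes, Pcp2 was most like Ddx54 (0.9997) and Cep295 (0.987), Homer3 most like Hspa12b (0.991) and Hjurp (0.984), Gng13 most like Kctd17 (0.991) and Pebp1 (0.991), and Inpp5a most like Ubxn4 (0.984) and Sorcs3 (0.982). With only 6 libraries, the top values of a search over so many genes are high by selection, so they are a description only. Some of these genes had few counts over the 6 libraries: Gucy1b3 and Kctd17 had 57 each, Ddx54 63, Zfpm2 64 and Ubxn4 74.

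Between the genotypes none of the 8 genes passed. In edgeR's quasi-likelihood test with Benjamini-Hochberg adjustment over the 5320 tested genes, 0 genes passed an adjusted p of 0.05 (0% of those tested), 246 had an unadjusted p under 0.05 (4.62%), and DESeq2 and limma-voom called 0 as well, with 96 and 234 genes at an unadjusted p under 0.05. The series text calls the 3 libraries of a genotype biological replicates, and p-values measure the spread between them. In bulk tissue, fewer cells of a type and less RNA per cell cannot be told apart. Since the strand counted was not stated, RNA of the other strand cannot be told apart from either.

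Gng13 lay nearest to a difference. Its CPM was 84.7, 99.6 and 85.5 for WT replicates 1 to 3 and 63.8, 71.7 and 62.9 for KO replicates 1 to 3. Mean CPM was 89.9 ± 8.43 for WT against 66.1 ± 4.83 for KO (SD, n = 3 each), and no KO library reached a WT library. Groups that do not overlap were found for 571 tested genes (10.7%), and for 325 (6.11%) in this direction. The log2 fold change was -0.44 (standard error 0.20, 95% interval -0.87 to -0.012), with an edgeR unadjusted p of 0.0446, reached in this direction by 162 tested genes (3.05%), and an edgeR adjusted p of 0.987. Mean CPM of its neighbour Chtf18 was 6508 ± 1813 for WT against 7158 ± 1737 for KO (SD, n = 3 each), with a log2 fold change of 0.14 (standard error 0.19) with an edgeR adjusted p of 0.997.

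Mean CPM of Pcp2 was 85.5 ± 14.1 for WT against 101 ± 12.7 for KO (SD, n = 3 each). The groups overlapped, and the log2 fold change was 0.24 (95% interval -0.19 to 0.67, edgeR adjusted p 0.987). Without the 2 libraries that hold Y-linked counts it was -0.0027. Mean CPM of Pet100 was 32066 ± 4013 for WT against 30435 ± 8376 for KO (SD, n = 3 each), and its log2 fold change was -0.075 (-0.41 to 0.26, edgeR adjusted p 0.997).

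For Homer3 mean CPM was 520 ± 44.6 for WT against 525 ± 9.51 for KO (SD, n = 3 each), with a log2 fold change of 0.014 (95% interval -0.26 to 0.28). For Ddx49 it was 16255 ± 2475 against 16245 ± 4973 (SD, n = 3 each), with a log2 fold change of -0.00097 (-0.37 to 0.37). Mean CPM of Inpp5a was 63.9 ± 11.1 for WT against 60.3 ± 12.0 for KO (SD, n = 3 each), with a log2 fold change of -0.094 (-0.59 to 0.41), and Nkx6-2 had a log2 fold change of 0.030 (-0.33 to 0.39). Each of these 4 genes had an edgeR adjusted p of 0.997 or above. Their groups all overlapped, and each interval spans 0, so these values do not show that the genes were equal between genotypes.

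Adding both genes of a pair gives a count that stays the same if only the 2 counts of the pair are exchanged. Another strand setting could also move reads into or out of exon that the genes do not share. The sum is therefore not independent of that setting. With each pair entered as 1 sum in the same test, the log2 fold change was -0.074 (standard error 0.16) for Pcp2 with Pet100, -0.00038 (0.17) for Homer3 with Ddx49, 0.13 (0.19) for Gng13 with Chtf18 and 0.029 (0.17) for Inpp5a with Nkx6-2. The edgeR adjusted p was 0.997 or above for every sum. The sums follow the neighbours, which hold nearly all of the counts.

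**Figure D5:**
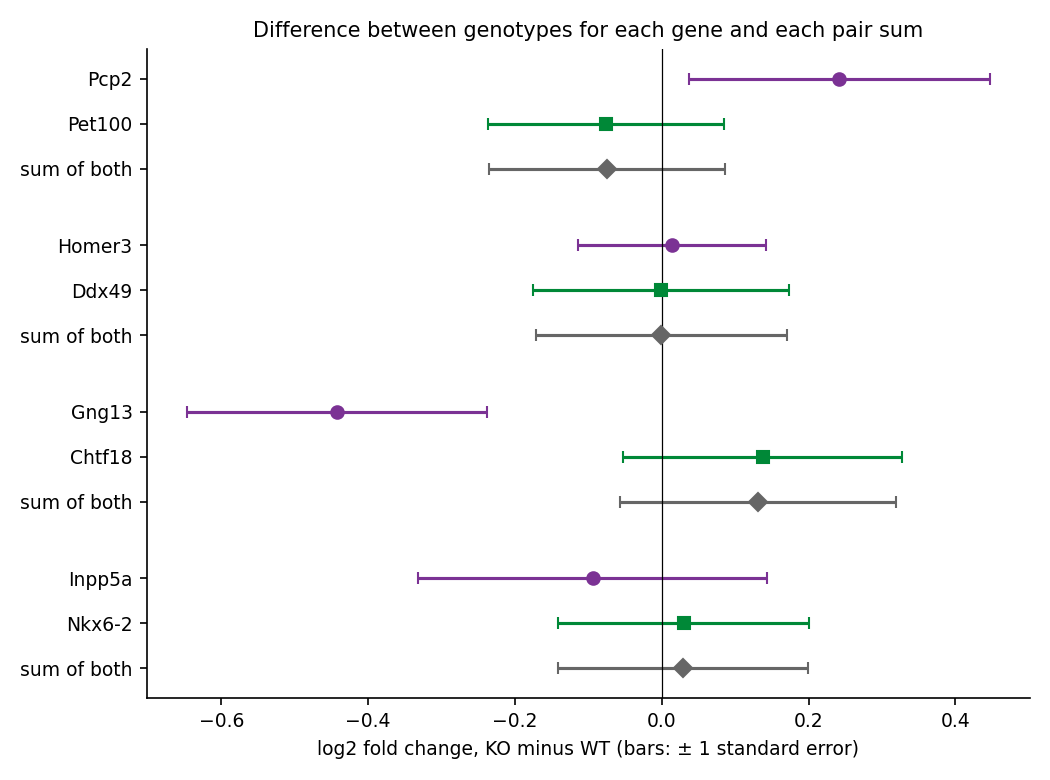
Log2 fold change of KO minus WT with 1 standard error, for each Purkinje gene (purple), its neighbour (green) and the sum of both (grey). Gng13 lies lowest at -0.44, Pcp2 highest at 0.24, and no value passed the adjusted threshold.

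The split within the pairs was compared between genotypes over all 1269 pairs, in an edgeR quasi-likelihood fit with a term for each library. At an adjusted p of 0.05, 0 pairs passed (0%), and 60 (4.73%) had an unadjusted p under 0.05. The ratio of Chtf18 to Gng13 was 72.3 ± 19.7 on average for WT against 108.6 ± 28.5 for KO (SD, n = 3 each). On the log2 scale the change was 0.57 (standard error 0.26) with an edgeR unadjusted p of 0.0319 and an adjusted p of 1, and the libraries of the groups overlapped. An exact two-sided permutation test of the log2 ratios gave p = 0.2, where 0.1 is the smallest that 3 against 3 allows. The ratio of Pet100 to Pcp2 was 383.5 ± 88.9 on average for WT against 302.9 ± 93.4 for KO (SD, n = 3 each), with a log2 change of -0.35 (standard error 0.27, edgeR adjusted p 1). The changes were -0.056 (0.21) for Homer3 with Ddx49 and 0.11 (0.26) for Inpp5a with Nkx6-2, both with an edgeR adjusted p of 1. The groups overlapped in all 4 pairs, and 9.3% of the 1269 pairs had groups that did not.

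Lists of related genes gave no call either, and each count stands beside 49.7% of all tested genes lower in KO and a median log2 fold change of 0.0019. Among Purkinje markers other than the 4 members, 23 of 29 tested were lower in KO, with a median of -0.14 and 0 called. Their summed level was 4888 to 5703 CPM in WT and 3775 to 4609 CPM in KO, with no overlap. Itpr1 held the most counts among them, and without it the groups overlapped, at 3176 to 3690 CPM for WT libraries and 2594 to 3228 CPM for KO libraries, with 22 of 28 tested markers lower and a median of -0.13. The lowest p belonged to the calcium buffer Pvalb (-0.73, standard error 0.17) and to Itpr1 (-0.47, standard error 0.14), both with an edgeR adjusted p of 0.917. In the mGluR1 and IP3 list without Homer3 and Inpp5a, 14 of 19 were lower with a median of -0.10, and Inpp5j, a phosphatase of the same family as Inpp5a, stood after Itpr1 at -0.84 (standard error 0.51). Inpp5j had few counts, 18, 14 and 8 for WT replicates 1 to 3 and 10, 12 and 1 for KO replicates 1 to 3. G protein gamma subunits had 4 tested members of 12, among them Gng3 at 0.43 (standard error 0.18) and Gng13, with 1 higher and 3 lower.

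Markers of other cells in the dissected layers gave 0 calls. Among astrocyte and Bergmann glia markers 10 of 12 tested were lower, at a median of -0.34, led by S100b (-0.74, standard error 0.22) and Aldh1l1 (-0.95, standard error 0.39), with a summed level of 1647 to 2062 CPM in WT and 1227 to 1715 CPM in KO. Granule cell markers had 4 higher and 5 lower of 9 tested, with Gabrd at 0.69 (standard error 0.27) and Gabra6 at -0.56 (standard error 0.46), and 481 to 582 CPM in WT against 494 to 603 CPM in KO. Gabra6 had few counts, 9, 17 and 17 for WT replicates 1 to 3 and 15, 13 and 2 for KO replicates 1 to 3. Interneuron markers had 3 lower of 3 tested, with Tfap2b at -0.77 (standard error 0.31) and Kit at -0.19 (standard error 0.26), and Cacng3 had 0 counts. Oligodendrocyte markers other than Nkx6-2 had 1 higher and 3 lower of 4 tested, with Trf at -0.39 (standard error 0.30) and Cnp at 0.11 (standard error 0.33). Microglial and endothelial markers had 0 tested members and summed to at most 58.0 CPM. The part of cell composition in the values of Gng13 was not tested.

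The authors' deposited tables put the 8 genes in the same order of change at its ends. In the authors' deposited DESeq table the ratio of KO over WT was lowest for Gng13, 0.752 with an unadjusted p of 0.0987, and highest for Pcp2, 1.21 with 0.261. The authors' deposited edgeR table gives WT over KO, and there Gng13 stood at a log2 ratio of 0.42 with an unadjusted p of 0.0589, and Pcp2 at -0.26 with 0.238. The other 6 genes lay between 0.966 and 1.12 in the authors' deposited DESeq table.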

How the data were processed

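RNA from 6 libraries (3 WT, 3 KO) was measured as reads per gene. The submitters' processing notes list TopHat, HTSeq (0.9.1), edgeR and DESeq and the build GRCm38 (mm10); reads were single and 50 bases long per the labels' protocols. For the strand setting and the counted annotation, nothing was stated in these sources. The authors deposited whole-number counts per gene symbol. Rows that name no gene (98.8% of uniquely aligned reads in no gene in every library) were left out, except in the totals of the alternative scaled to all uniquely aligned reads. The authors also deposited a DESeq table, of which the ratio (fold change, KO over WT) and p-value were read, and an edgeR table, of which the log2 ratio (WT over KO) and p-value were read, per the file headers.

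Genotypes were compared with edgeR 4.0.16 (R 4.3.3; filterByExpr with a minimum count of 10, TMM factors of 0.954 to 1.04, glmQLFit and glmQLFTest, adjusted p under 0.05) on all 6 libraries without covariates; standard errors are those implied by the F statistic. Library sizes are the counts in tested genes. For splits within pairs, both genes' counts of a library entered as 2 columns of the same library size. Gene models are GENCODE M21, with 23334 symbols (95.5%) matched. The tests were also run on simulated counts, with no outcome given here. The simulated splits within pairs were limited to be less skewed than those of Pcp2, Gng13 and Inpp5a with their neighbours. That run therefore does not cover these pairs. All libraries were kept, as every 2 of them differed beyond sampling noise (lowest chi-square over its degrees of freedom 2.30). Members and lists were chosen with earlier results of these data known. Named genes are the members, the 2 lowest p per list, the 2 most alike genes per member and other opposite-strand pairs of Purkinje markers, of which 1 is not reported here; the genes of like function were added after their values were seen. Alternatives were other normalisations, filters and tools (DESeq2 1.42.0, limma 3.58.1), a replicate block, other pair thresholds, leaving out each library and, added after seeing the data, leaving out both libraries with Y-linked counts.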

Additional observations from a re-analysis of the deposited data

Results flagged for a closer look

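A signal in data that no main comparison used was the share of reads in no gene. Averaged over the 6 libraries it was 98.8% of uniquely aligned reads, and only their number was given. Among the comparisons, that number entered only the alternative scaled to all uniquely aligned reads. The 8 genes described here are part of the remaining reads.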

How the results depend on the processing

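No member, pair sum or split passed an adjusted p of 0.05 in any of 232 alternative values (lowest 0.885), and 43 of them changed sign. Values near 0 did so most. Ddx49 was 0.011 (RLE), 0.027 (no filter), 0.036 (CPM filter), 0.011 (DESeq2) and 0.039 (without both libraries with Y-linked counts), and the sum of Homer3 and Ddx49 0.011, 0.027, 0.026, 0.011 and 0.039 in the same settings. Nkx6-2 was -0.0030 and its pair sum -0.0042 with limma-voom, and -0.032 and -0.033 when scaled to all uniquely aligned reads, where Homer3 was -0.040. Without both libraries with Y-linked counts Pcp2 was -0.0027, Inpp5a 0.039 and the split of Inpp5a and Nkx6-2 -0.022. The cause was not tested.

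Leaving out each library, the log2 fold change ranged from 0.10 to 0.31 (Pcp2), -0.28 to 0.12 (Pet100), -0.057 to 0.072 (Homer3), -0.25 to 0.20 (Ddx49), -0.51 to -0.36 (Gng13), -0.080 to 0.31 (Chtf18), -0.25 to 0.055 (Inpp5a) and -0.19 to 0.21 (Nkx6-2). Pair sums ranged from -0.27 to 0.12 (Pcp2 with Pet100), -0.24 to 0.20 (Homer3 with Ddx49), -0.084 to 0.30 (Gng13 with Chtf18) and -0.19 to 0.21 (Inpp5a with Nkx6-2), and splits from -0.59 to -0.17, -0.26 to 0.17, 0.37 to 0.76 and -0.030 to 0.29 in that order.

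Over all genes 6 were called with no filter, 1 with the CPM filter, 1 without both libraries with Y-linked counts (a setting chosen after seeing the data), and 0 to 1 when single libraries were left out, where WT replicate 3 gave the 1. The share of pairs with a dominant gene was 66.5% at 80% of counts and 34.3% at 95%, and 47.5% to 48.4% leaving out each library. Per kb of exon the mean share was 92.4% for Chtf18 (98.8% by counts) and 99.6% for Nkx6-2 (98.8%).

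The replicate block called 0 genes and 0 pairs and put Gng13 at -0.44 and the split of Gng13 and Chtf18 at 0.59 (edgeR unadjusted p 0.00554, adjusted p 0.98). That was the lowest p of the alternatives for this split. Limma on the log2 ratio gave an unadjusted p of 0.128. Leaving out 1 library gave edgeR unadjusted p from 0.0127 (WT replicate 3) to 0.219 (KO replicate 3). For Gng13 itself, DESeq2 gave an unadjusted p of 0.112. Deviations of samples with equal numbers correlated at 0.143, 0.0795 and 0.122, and the labels name no pairing. The 3 lowest of 15 chi-square values between libraries (2.30, 2.49 and 3.03 per degree of freedom) were those of equal numbers, a hint from the data and not from the design. The Purkinje genes rest on 36 to 390 counts per library, which limits the differences that can be seen.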
